A study of Mus musculus with 4 samples.

Results

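The 40 genes described here act in the cell division cycle, and were followed in macrophages of mouse visceral fat. They are part of the 32285 genes in the count matrices, chosen by name from genes known to act in DNA replication or in mitosis. The S-phase members are 11 genes: Mcm2, Mcm3, Mcm4, Mcm5, Mcm6, Mcm7, Pcna, Rrm1, Rrm2, Tyms and Gins2. The mitotic members are 23 genes: Mki67, Top2a, Ube2c, Birc5, Cenpf, Nusap1, Prc1, Cdk1, Kif11, Ccna2, Cdca8, Tpx2, Cdca3, Ccnb1, Ccnb2, Aurka, Aurkb, Bub1, Bub1b, Plk1, Cenpe, Cenpa and Kif23. A further 4 replication genes (Tk1, Dut, Cdc6 and Pclaf) and a pair outside both phases (Stmn1 and Hmgb2) complete the set.

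The series compares macrophages of perigonadal white adipose tissue (gWAT) between wild-type mice (WT) and mice with a conditional knockout (CKO) of BLIMP1, a transcriptional repressor encoded by Prdm1. The sort kept live cells that carried CD45, CD11b and CD64 and lacked a lineage stain. Single-cell RNA libraries were made by the 10x Genomics 3′ method, which counts unique molecular identifiers (UMIs). Both genotypes were kept on 1 of 2 diets, high fat (HFD) or normal, which gives a pair of WT and a pair of CKO groups. Each of these 4 groups is 1 library, so group and library cannot be told apart, and no test across animals or preparations was possible. The sources used here do not give the number of animals per library, their age, the Cre driver, the deleted exons or the time on the diet.

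Values in 4s are given throughout in the order of WT under HFD, CKO under HFD, WT under the normal diet and CKO under the normal diet. After filtering, 4650, 8731, 3705 and 4302 cells were kept. The kept cells held 74442649, 42551849, 21788293 and 24513539 UMIs, with medians of 14492.5, 3923, 4092 and 3939 per cell, so WT HFD stands apart in depth. Pairs of libraries shared 2 to 12 cell barcodes. Of the macrophage markers, C1qb was found in 53.5% to 84.2% of cells and Csf1r in 48.1% to 62.6%, after every cell had been thinned to 2000 UMIs. Prdm1 stood at 21.9, 22.9, 22.9 and 28.4 UMIs per 1000000 (CPM), and was not lower in either library labelled CKO. A 3′ count can still read a transcript that lacks an internal exon, so Prdm1 does not check the genotype labels, and CKO below means the library labelled CKO.

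During S phase a cell copies its DNA once. The MCM proteins form the helicase that opens the double strand, GINS2 is part of the same machine, and PCNA is the sliding clamp that holds the polymerases. Ribonucleotide reductase (Rrm1, Rrm2), thymidylate synthase (Tyms), thymidine kinase (Tk1) and dUTPase (Dut) supply the nucleotides. In mitosis the kinase CDK1 with its cyclins, the Aurora and Polo kinases, kinesin motors, centromere proteins and the checkpoint kinase BUB1 condense, align and part the chromosomes. Tissue-resident macrophages of fat can divide in place, and their numbers are also fed by blood monocytes.

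Promoters of S-phase and mitotic members differ in how many hold certain short letter patterns, which is why a few are shown. The 3 patterns below were searched on both strands in RefSeq promoter windows (build GRCm38.p6, 250 bases before to 50 bases after the start): CCAAT, the letters bound by NF-Y; TTTGAA, known as the CHR element of mitotic genes; and TTCCCGC or TTGGCGC, which are E2F-type letters. Of the S-phase members, 9 of 11 had a window. CCAAT was in 8 of these 9, TTTGAA in 1 and the E2F-type letters in 5. Of the mitotic members, 20 of 23 had a window. CCAAT was in 18 of the 20, TTTGAA in 15 and the E2F-type letters in 3. Over all 27025 genes with a window, the 3 patterns were in 41.1%, 20.2% and 7.79%. Of the 4 further replication genes, 1 held CCAAT (Pclaf), none TTTGAA and 2 the E2F-type letters (Cdc6 and Pclaf). Tyms, Birc5, Nusap1, Tk1 and Dut held none of the patterns. A CCAAT match overlapped an E2F-type match in 1 window of Mcm7 and in the window of Ccnb1.

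The 5 stretches below are the 120 bases before the RefSeq start of 3 mitotic and 2 S-phase members, 5′ to 3′ on the strand of the gene. Capitals mark the patterns in either orientation (ATTGG is CCAAT, and TTCAAA is TTTGAA, read on the other strand).
Top2a: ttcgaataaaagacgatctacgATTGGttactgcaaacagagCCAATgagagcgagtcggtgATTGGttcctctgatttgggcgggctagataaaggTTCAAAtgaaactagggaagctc
Kif11: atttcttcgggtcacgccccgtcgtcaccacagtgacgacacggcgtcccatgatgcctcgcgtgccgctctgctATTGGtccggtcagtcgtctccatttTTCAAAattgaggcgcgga
Mki67: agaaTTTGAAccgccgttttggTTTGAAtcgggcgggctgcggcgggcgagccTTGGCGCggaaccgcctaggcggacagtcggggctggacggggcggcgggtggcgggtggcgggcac
Rrm1: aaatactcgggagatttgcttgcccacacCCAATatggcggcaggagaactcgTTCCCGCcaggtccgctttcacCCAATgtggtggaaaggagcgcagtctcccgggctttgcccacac
Mcm6: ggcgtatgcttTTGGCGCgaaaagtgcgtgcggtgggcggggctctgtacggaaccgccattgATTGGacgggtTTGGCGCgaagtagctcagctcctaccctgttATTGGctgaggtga
They lie at chr11:99024190-99024309 (minus strand), chr19:37376262-37376381 (plus), chr7:135716380-135716499 (minus), chr7:102441575-102441694 (plus) and chr1:128359706-128359825 (minus). Each stretch is upstream of the gene in the GENCODE M21 annotation. In Top2a, CCAAT begins 98, 78 and 58 bases before the start and TTTGAA 23 bases before it. In Kif11 they begin 45 and 19 bases before the start. Mki67 has TTTGAA at 116 and 98 bases and TTGGCGC at 67 bases before the start. The stretches of Rrm1 and Mcm6 hold the E2F-type letters and CCAAT but not TTTGAA. A match of letters is a description of the window and not a bound site. Windows of Mcm4, Gins2, Ccna2, Tpx2, Aurkb and Stmn1 were not analysed here.

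The level of each member is its summed UMIs over all kept cells, in CPM. The S-phase members summed to 499.8, 453.9, 419.9 and 444.4 CPM. The mitotic members summed to 1028, 678.6, 561.4 and 762.6 CPM. The S-phase sum, of which Pcna is the largest part, thus spread less over the libraries than the mitotic sum. Single S-phase genes, such as Tyms and Gins2, spread as widely as many mitotic genes. WT HFD had the highest level for 9 of 11 S-phase and 19 of 23 mitotic members. WT normal diet had the lowest for 7 and 16 of them. How many of all genes had this order was not computed.

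**Figure D1:**
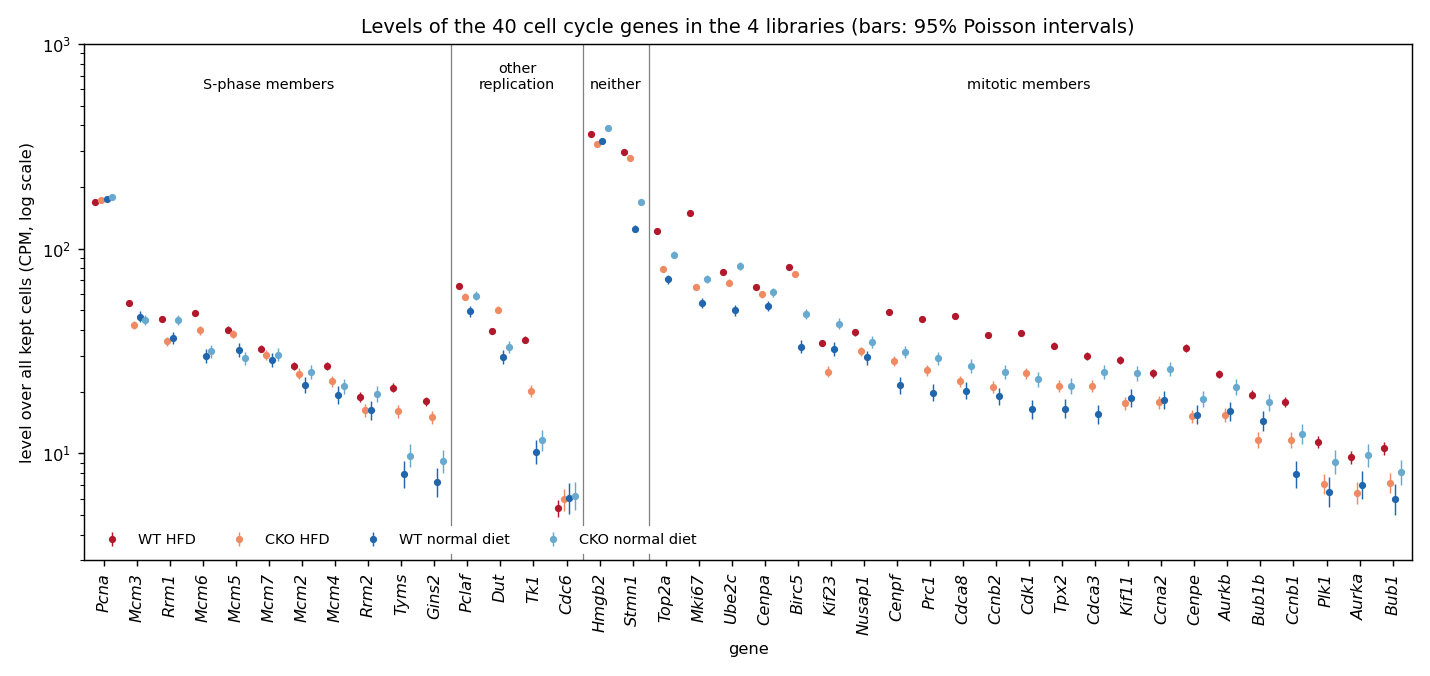
Level of each of the 40 genes in CPM over all kept cells (log axis), with 1 point per library and 95% Poisson intervals for counting error. Pcna sits at 168.3 to 179.0 CPM in all 4 libraries, while Mki67 runs from 54.2 to 149.1.

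Pcna stood at 168.3, 173.2, 174.3 and 179.0 CPM, the smallest spread among the S-phase members named here. Mcm3, a helicase subunit, stood at 54.0, 42.5, 46.6 and 44.9 CPM, and Mcm6 at 48.4, 39.9, 29.8 and 31.5. Both were highest in WT HFD, and Mcm6 was higher in each HFD library than in each normal-diet library. Mcm5 (40.2, 38.3, 31.9 and 29.2 CPM) had the same order of diets, while Mcm7 stood at 32.5, 30.3, 28.5 and 30.4. Rrm1, the large subunit of ribonucleotide reductase, stood at 45.3, 35.4, 36.6 and 44.9 CPM, so that WT HFD and CKO normal diet were alike and above the other pair. Tyms stood at 20.96, 16.0, 7.89 and 9.75 CPM and Gins2 at 17.9, 14.97, 7.21 and 9.14. These 2 genes separated the diets more than any other S-phase member. Mcm2 (21.6 to 26.6 CPM), Mcm4 (19.3 to 26.7) and Rrm2 (16.2 to 19.5) made up the rest of the list.

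Of the further replication genes, Tk1 stood at 35.9, 20.2, 10.1 and 11.6 CPM, in steps from WT HFD to CKO HFD to the normal diet. Dut was highest in CKO HFD (39.7, 50.3, 29.7 and 33.0 CPM). Pclaf, which encodes a PCNA-binding protein, stood at 65.9, 58.1, 49.4 and 58.9 CPM. Cdc6, a helicase loader, was low in all libraries (5.37 to 6.20 CPM). Hmgb2, a chromatin protein, stood at 361.4, 325.6, 336.5 and 388.1 CPM, with no order by diet. Stmn1, a microtubule-destabilising protein, stood at 295.6, 278.4, 125.1 and 168.6 CPM and was higher under HFD in both genotypes.

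Mki67, which coats mitotic chromosomes and is the classic marker of cycling cells, stood at 149.1, 65.0, 54.2 and 71.3 CPM. WT HFD was over 2 times any other library for this gene. Top2a, the topoisomerase that untangles sister DNA, stood at 122.2, 79.6, 70.9 and 93.3 CPM. Cenpf (49.0, 28.4, 21.5 and 31.3 CPM), Prc1 (45.4, 25.4, 19.7 and 29.0) and Cdca8 (47.1, 22.5, 20.2 and 26.6) had the same order, with WT HFD highest and WT normal diet lowest. Cenpf is a kinetochore protein, PRC1 bundles the central spindle, and CDCA8 (borealin) belongs to the Aurora B complex.

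Not every mitotic gene was highest in WT HFD. Ube2c, the ubiquitin-conjugating enzyme of the anaphase-promoting complex, stood at 77.2, 68.2, 49.9 and 82.6 CPM, with CKO normal diet highest. Birc5 (survivin) stood at 81.2, 74.97, 33.1 and 47.9 CPM, and so separated the diets. Kif23, a kinesin of the midbody, stood at 34.6, 25.1, 32.3 and 43.0 CPM. Cenpa, the centromeric histone, stood at 64.8, 59.9, 52.6 and 61.4 CPM. Nusap1, a spindle microtubule protein, stood at 39.0, 31.5, 29.4 and 35.0 CPM. Both had their highest level in WT HFD and their lowest in WT normal diet. The cyclin genes Ccna2, Ccnb1 and Ccnb2 were at 17.8 to 25.9, 7.89 to 17.8 and 18.96 to 37.9 CPM. KIF11 is the motor that pushes the spindle poles apart, TPX2 activates Aurora A, and AURKA, AURKB and PLK1 are mitotic kinases. Cdk1, Kif11, Tpx2, Cdca3, Cenpe, Aurkb and Bub1b lay in the range of 11.6 to 38.6 CPM, and Plk1, Aurka and Bub1 in that of 5.97 to 11.4.

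The 4 comparisons follow from the design, each between 1 library and another. Ratios are of CPM, with 95% exact intervals that cover counting error only, and a gene was counted where it differed by over 1.5 times and reached 10 CPM in either library. Over all genes that reached 10 CPM the median log2 ratio was not 0. It stood at -0.22 for CKO over WT under HFD, 0.03 for CKO over WT under the normal diet, -0.18 for HFD over normal diet in WT and -0.44 for that contrast in CKO. Members are therefore read against these medians. These comparisons share libraries pairwise and are not independent of each other.

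Under HFD, mitotic members were lower in the library labelled CKO than in WT, and S-phase members lay near the median of all genes. No member was over 1.5 times higher, and 15 of the 38 with enough UMIs were over 1.5 times lower. Over all 7864 genes these shares were 5.38% and 20.7%. The 15 comprised 14 of 22 mitotic members and Tk1, and none of the 11 S-phase members. Plk1 reached 10 CPM in WT only. Mki67 was at 0.436 of WT (0.418 to 0.454), Cenpe, a kinetochore motor, at 0.463 and Cdca8 at 0.478. Cenpa (0.924), Birc5 (0.923) and Ube2c (0.884) were the mitotic members nearest to WT. The median log2 ratio was -0.65 for mitotic and -0.25 for S-phase members, and all 22 mitotic ratios were below 1. Among S-phase members Tyms was lowest (0.765) and Pcna highest (1.03). Tk1 was at 0.562 and Dut at 1.27. With levels centred on the median of all genes, the mitotic median was -0.43 and the S-phase median -0.03. On that scale 3 of 22 mitotic members were above 0, and 6 members were over 1.5 times lower. The share of all genes lower on that scale was not computed, so the 6 have no background beside them.

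Under the normal diet, where both libraries had a similar depth, the order of the genotypes was the other way round. All 20 mitotic members with enough UMIs were higher in the library labelled CKO than in WT, with a median log2 ratio of 0.40. S-phase members had a median of 0.09, with 7 of 9 above 0. Of 34 members, 3 were over 1.5 times higher, all of them mitotic: Ube2c at 1.66 (1.54 to 1.78), Cdca3 at 1.60 (1.40 to 1.83) and Ccnb1, the mitotic cyclin B1, at 1.57 (1.30 to 1.91). Ccnb1 reached 10 CPM only in the library where it was higher, and so could enter this count only by differing. None was over 1.5 times lower. Over all 8111 genes the shares were 0.493% higher and 0.592% lower. Mki67 was at 1.32 (1.22 to 1.42), Top2a at 1.32 and Cenpa, the lowest of the mitotic list, at 1.17. Mcm5 had the lowest S-phase ratio (0.913) and Rrm1 the highest (1.23). Centring on the median of all genes left all 20 mitotic ratios above 0.

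In WT, mitotic members were higher under HFD than under the normal diet, and a few S-phase genes went with them. Of 38 members, 22 were over 1.5 times higher and none was lower. Over all 8342 genes, 13.2% were higher and 24.6% lower by that margin. The 22 comprised 17 of 22 mitotic members, 3 of 11 S-phase members (Tyms at 2.65, Gins2 at 2.49 and Mcm6 at 1.62), Tk1 and Stmn1. Of these, Tyms, Gins2, Ccnb1, Bub1 and Plk1 reached 10 CPM in WT HFD only, so the count is a description. Tk1 had the highest ratio, 3.53 (3.08 to 4.07), followed by Mki67 with 2.75 (2.59 to 2.93). Birc5 was at 2.45, Cdk1, the mitotic kinase itself, at 2.35, and Kif23 at 1.07. Pcna was at 0.966 (0.931 to 1.00). The median log2 ratio was 0.88 for mitotic and 0.31 for S-phase members, and the median-centred values were 1.06 and 0.48.

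In the libraries labelled CKO, the diets differed less for mitotic members, and the direction depended on the scaling. Of 36 members, 6 were over 1.5 times higher under HFD: Tk1 at 1.73 (1.52 to 1.99), Stmn1 at 1.65, Tyms at 1.64, Gins2 at 1.64, Birc5 at 1.57 and Dut at 1.53. Tyms and Gins2 reached 10 CPM only under HFD. Lower by that margin were 2 mitotic members, Kif23 at 0.584 (0.536 to 0.636) and Bub1b, a checkpoint kinase, at 0.653. Over all 8235 genes, 11.8% were higher and 42.6% lower. The mitotic median was -0.22, with 3 of 20 members above 0, and 5 of 11 S-phase members were above 0. The median of all genes was lower (-0.44). Centred on that median, no member was over 1.5 times lower, and the share of all genes on that scale was not computed. The mitotic and S-phase medians were then 0.21 and 0.44. With TMM factors they were 0.26 and 0.49. Mki67 was at 0.911 (0.858 to 0.968) and Cdk1 at 1.07 (0.966 to 1.19). Rrm1 was the lowest S-phase member, at 0.788.

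**Figure D2:**
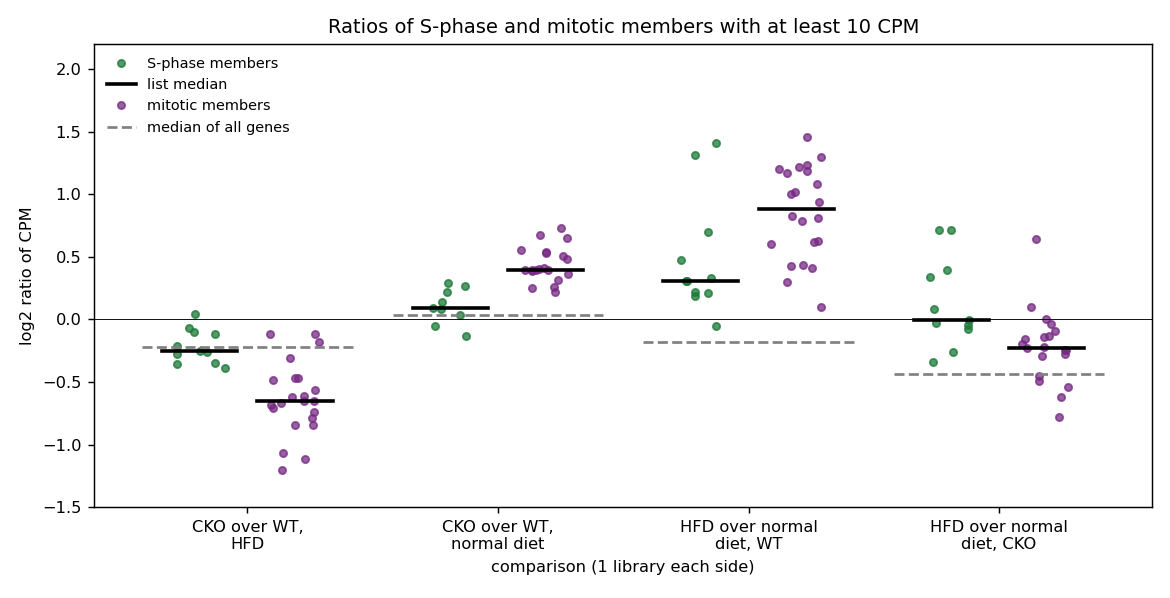
Log2 ratio of CPM for S-phase and mitotic members that reached 10 CPM in either library, by comparison; each point is 1 gene, black bars are list medians and dashed lines the median of all genes. Mitotic medians are -0.65, 0.40, 0.88 and -0.22, and those of S-phase members lie closer to the dashed lines in the first 3 comparisons.

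The ratios of all genes went down with gene span in every comparison that involved an HFD library. With genes ranked by span in 5 equal bins, from the shortest to the longest, the median log2 ratio went from 0.12 to -0.66 for CKO over WT under HFD. The range was 0.22 to -0.49 for HFD over normal diet in WT and 0.35 to -1.20 for the same in CKO. Between the normal-diet libraries it was 0.02 to 0.05. S-phase members span 4.15 to 28.1 kb and mitotic members 4.16 to 61.1 kb, and none that was counted lay in the longest bin. Relative to genes of similar span, the mitotic medians were -0.51, 0.37, 0.94 and 0.15 in the 4 comparisons, and the S-phase medians -0.16, 0.07, 0.32 and 0.08. The mitotic median of HFD over normal diet in the libraries labelled CKO thus changed sign here too.

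To compare cells at equal depth, every cell was then thinned to 2000 UMIs. That left out 67, 1076, 675 and 820 shallower cells and kept 4583, 7655, 3030 and 3482. Among the kept cells, those with at least 2 members had median depths before thinning 1.18 to 1.38 times those of the others. What leaving out the shallow cells does to the values was not tested. S-phase members gave 0.849, 0.775, 0.721 and 0.764 UMIs per thinned cell. Mitotic members gave 1.52, 0.994, 0.720 and 0.999. Relative to WT, the library labelled CKO had 0.656 times the mitotic UMIs under HFD (0.635 to 0.678) and 1.39 times under the normal diet (1.31 to 1.46). The S-phase ratios were 0.913 (0.877 to 0.951) and 1.06 (1.00 to 1.12). HFD over normal diet gave 2.11 for mitotic and 1.18 for S-phase members in WT, and 0.995 and 1.01 in CKO. At equal depth the mitotic genes thus differed more between libraries than the S-phase genes did, and the interval for diet in CKO included 1 for both lists (0.956 to 1.04 and 0.969 to 1.06).

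Single members of either list spread unequally at equal depth. Mki67 (GRCm38 chr7:135689784-135716361, minus strand) was found in 10.7%, 6.05%, 4.82% and 6.17% of thinned cells, against 22.1%, 9.70%, 8.29% and 10.04% without thinning. Ccnb1 (chr13:100778650-100786570, minus) was in 2.14%, 1.35%, 0.627% and 1.21%, and Tk1 (chr11:117815526-117826092, minus) in 5.19%, 2.81%, 1.02% and 1.26%. All 3 were most frequent in WT HFD and least in WT normal diet. Some S-phase members had that order too. Tyms was in 2.81%, 2.47%, 1.35% and 1.75% of thinned cells and Gins2 in 2.57%, 2.30%, 0.990% and 1.55%. Mcm6 was in 7.48%, 5.83%, 4.39% and 4.71%. Pcna (chr2:132249162-132253314, minus) was in 23.2%, 23.6%, 25.2% and 26.9% of thinned cells, against 73.2%, 41.1%, 46.9% and 46.4% without thinning, so the excess of WT HFD in unthinned cells was not seen at equal depth. WT HFD had the largest share for 22 of 23 mitotic members and WT normal diet the smallest for 19. Of the 11 S-phase members these counts were 8 and 6, so the order was not particular to the mitotic list. Counts over all genes were not computed.

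The S-phase share of the summed S-phase and mitotic UMIs was 35.9%, 43.8%, 50.05% and 43.3% over all thinned cells. Within cells that held at least 2 of the 40 members it was 32.5% (31.5 to 33.4), 39.2% (38.4 to 40.1), 44.4% (42.8 to 46.1) and 38.1% (36.8 to 39.4). WT HFD was the most mitotic and WT normal diet the most S-phase weighted, with both CKO libraries between them. As odds of S-phase over mitotic UMIs within these cells, CKO over WT was 1.34 under HFD (1.27 to 1.42) and 0.770 under the normal diet (0.706 to 0.840). HFD over normal diet was 0.601 in WT (0.556 to 0.650) and 1.05 in CKO (0.980 to 1.12). The last interval includes 1, so no difference was detectable there at this depth. UMIs of 1 cell are not independent of each other, so these intervals are too narrow.

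**Figure D3:**
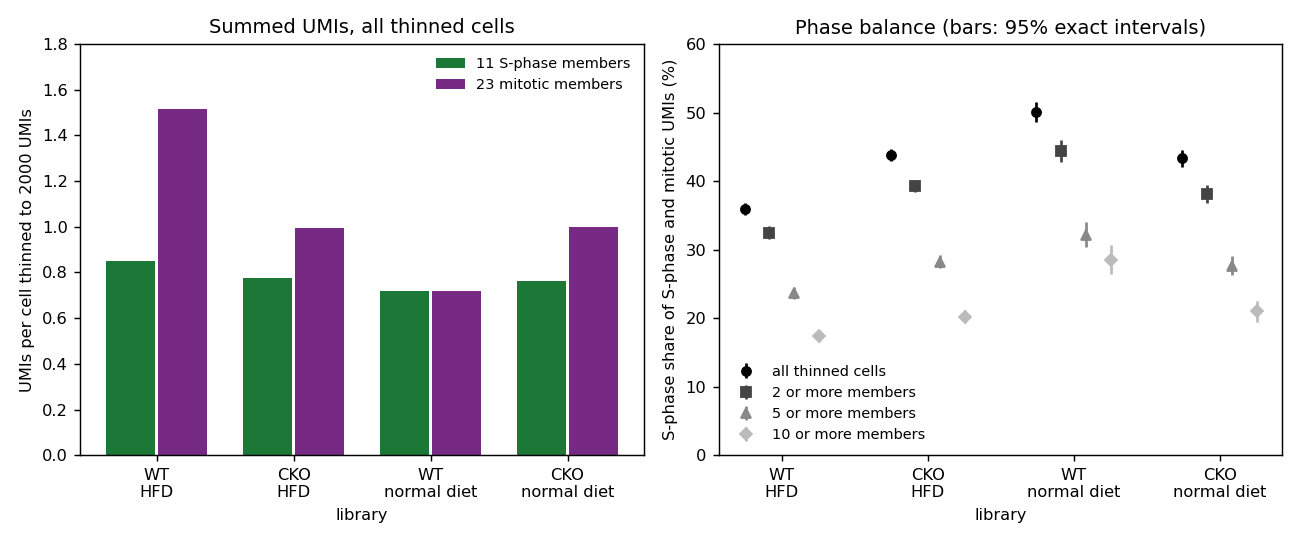
Left, summed UMIs per cell thinned to 2000 UMIs for the 11 S-phase and 23 mitotic members, by library (bars from 0). Right, S-phase share of their summed UMIs over all thinned cells and within cells that held at least 2, 5 or 10 of the 40 members, with 95% exact binomial intervals; in each set WT HFD is lowest and WT normal diet highest.

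Within these cells the mitotic side again differed more, except for HFD over normal diet in CKO. In cells with at least 2 members, S-phase UMIs per cell were 2.02, 1.98, 1.78 and 1.77, and mitotic UMIs were 4.201, 3.07, 2.23 and 2.87. For HFD over normal diet in CKO the ratio was 1.12 (1.06 to 1.18) for S-phase and 1.07 (1.02 to 1.11) for mitotic UMIs. Cells with at least 2 members were chosen by these same genes. Shares over all genes were not computed within them, so the counts that follow have no background and are a description. For CKO over WT under HFD, 22 of 23 mitotic members were found in a smaller share of such cells, 15 of them with an interval below 1. Of the S-phase members, 2 of 11 had an interval below 1. Cdca8 had the lowest ratio, 0.523. For CKO over WT under the normal diet, 21 of 23 mitotic members were in a larger share, 5 of them with an interval above 1, and no S-phase member had an interval off 1. In WT, 18 of 23 mitotic and 3 of 11 S-phase members had an interval above 1 for HFD over normal diet, with Ccnb1 highest among the mitotic list (3.04). In CKO, 12 of 23 mitotic members were higher under HFD and 11 lower, with 2 intervals above 1 and 2 below. Of the S-phase members, 9 of 11 were higher under HFD in CKO, 4 of them with an interval above 1.

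The share of thinned cells with at least 2 members was 34.8%, 31.1%, 29.97% and 32.9%. Without thinning it was 89.4%, 48.7%, 55.3% and 55.8%, in which depth differs. The ratio was 0.893 for CKO over WT under HFD (0.838 to 0.952) and 1.10 under the normal diet (1.01 to 1.20). It was 1.16 for HFD over normal diet in WT (1.07 to 1.26) and 0.943 in CKO (0.879 to 1.01). At 3000 UMIs per cell these ratios were 0.989 (0.933 to 1.05), 1.06 (0.978 to 1.16), 1.05 (0.975 to 1.13) and 0.977 (0.913 to 1.05), and every interval included 1. With cells chosen by the wider lists, HFD over normal diet in WT reversed to 0.946 (0.891 to 1.00). Cells gated as other types were set beside this. In cells gated as non-classical monocytes, 29.9% of 334 in WT normal diet and 30.9% of 307 in CKO normal diet had at least 2 members. Their median depth before thinning was 2934 and 2878 UMIs, against 4932 and 4848 for all thinned cells of these libraries. Hmgb2 was in 44.3% and 48.9% of these gated cells and Pcna in 22.5% and 27.4%, but Mki67 in 1.20% and 1.30%. Hmgb2 was in 31.6% and 33.8% of all thinned cells of these libraries. In the HFD libraries the gate held 42 and 45 cells, with at least 2 members in 26.2% and 26.7% and Mki67 in 11.9% and 2.22%. Mitotic UMIs per gated cell were 1.12, 0.733, 0.275 and 0.264 in the 4 libraries. The gate thus held cells with few mitotic UMIs under the normal diet but not in WT HFD, and does not serve there as a set of cells without these genes. Cells gated as fibroblasts had at least 2 members in 6.38% of 47 (WT HFD) and 13.8% of 58 (CKO HFD), with Mki67 in 0 of either, which allows a share of up to 6.38% and 5.17% of cells with a UMI at this depth and sets no limit on cells that express the gene. Their median depth was 16118 and 3712.5 UMIs.

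Stricter counts of members were chosen after these values had been seen. At least 5 members were found in 14.2%, 11.4%, 7.72% and 10.6% of thinned cells, and in 9.52%, 8.89%, 2.10% and 1.63% of the gated non-classical monocytes. Under HFD these were 4 of 42 and 4 of 45 gated cells, with intervals of 2.66 to 22.6 and 2.48 to 21.2. Those intervals include the shares of all thinned cells. Under the normal diet the intervals were 0.847 to 4.27 and 0.531 to 3.76, below the shares of all thinned cells. At least 10 members were found in 8.40% (7.61 to 9.24), 5.80% (5.29 to 6.35), 3.70% (3.05 to 4.43) and 5.198% (4.48 to 5.99), and in 4.76%, 4.44%, 0.898% and 0.651% of the gated monocytes. For at least 10 members, CKO over WT was 0.690 under HFD (0.601 to 0.793) and 1.41 under the normal diet (1.10 to 1.796). HFD over normal diet was 2.27 in WT (1.84 to 2.83) and 1.12 in CKO (0.937 to 1.33). WT HFD was again highest and WT normal diet lowest. Cells that met the monocyte gate made up 0.916%, 0.588%, 11.02% and 8.82% of the libraries. Without them the share with at least 10 members was 8.43%, 5.81%, 4.04% and 5.64%.

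**Figure D4:**
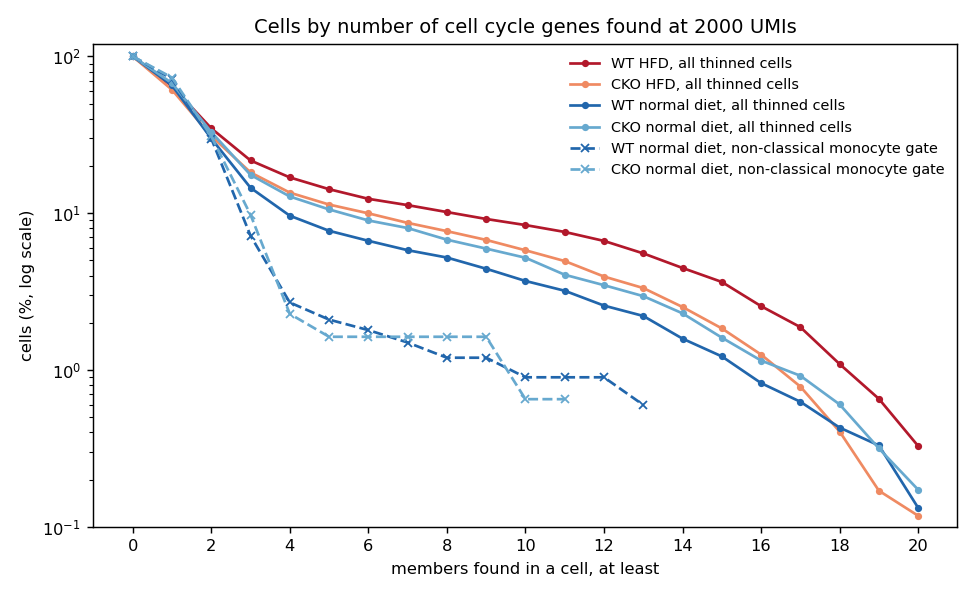
Share of cells (log axis) that held at least a given number of the 40 members at 2000 UMIs, for all thinned cells of each library (solid) and for cells gated as non-classical monocytes in the normal-diet libraries (dashed). The dashed lines meet the solid ones at 2 members and lie at 2.10% and 1.63% at 5 members.

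As the number of members per cell grew, the balance moved to mitosis. In cells with 2 to 4 members the S-phase share of the summed UMIs was 72.1%, 76.8%, 70.8% and 67.6%. In cells with 5 to 9 it was 50.7%, 50.3%, 40.2% and 43.9%. In cells with 10 to 19 it was 17.6%, 20.8%, 29.6% and 21.2%. WT HFD was thus below WT normal diet with 10 to 19 members, but above it with 2 to 4 and with 5 to 9. CKO normal diet was above WT normal diet with 5 to 9 members and below it in the other ranges. CKO HFD was above WT HFD with 2 to 4 and with 10 to 19 members, but not with 5 to 9. The lists differ in size, with 11 against 23 genes, which bears on how many members a cell in either phase can show. Cells with at least 10 members had median depths of 21969, 6639, 10925 and 9295 UMIs before thinning, above their libraries' medians. With the highest doublet scores removed, the odds in cells with at least 2 members were 1.34, 0.766, 0.608 and 1.06 in the 4 comparisons. The part of depth was not tested.

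Members differed in how far they were confined to cells that held other members. The share of a member's thinned UMIs in cells with at least 2 other members had a median of 95.3%, 95.5%, 92.9% and 95.5% over the mitotic list. Over the S-phase list it was 73.4%, 69.9%, 63.8% and 66.3%. The lists differ in size, with 23 mitotic and 11 S-phase genes, which bears on this measure and was not adjusted for. Pcna was lowest among the S-phase members in every library (52.0%, 45.4%, 35.2% and 39.6%), and Rrm2, the regulated subunit of ribonucleotide reductase, was highest (97.0% to 100%). Cenpa was the lowest of the mitotic list in 3 libraries (62.5% to 70.6%) and Aurkb in WT normal diet (52.4%). Pclaf, at 95.8% to 99.1%, ranked with the mitotic genes in this respect. Kif23 was in 6.59% and 5.21% of the gated non-classical monocytes under the normal diet, above its share in all thinned cells of WT normal diet (4.49%) and below that of CKO normal diet (5.80%).

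Pairs of members were found together more often than the product of their single shares. The median of observed over product was 7.83, 9.98, 10.6 and 9.05 for the 253 mitotic pairs, 2.97, 3.03, 3.94 and 3.31 for the 55 S-phase pairs, and 2.29, 2.39, 3.14 and 2.56 for the 253 mixed pairs. All mitotic and all S-phase pairs were above 1 in each library. These are values across cells of 1 library, which share its depth, and carry no test. Among mixed pairs, the highest value involved Rrm2 in every library, with Bub1, Ccna2, Bub1 and Kif11.

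Cells were also sorted by markers of fat macrophages at 2000 UMIs, where a set counted as met with at least 2 of its 8 genes. These sets are ranges and not types: 839, 1029, 298 and 321 cells met the resident set (Lyve1, Folr2, Cd163, Timd4, Cbr2, F13a1, Gas6, Pf4) with exactly 2 markers, and 1440, 1489, 570 and 574 had 1. Among cells that met the resident set alone, at least 10 members were found in 11.6% of 1149 (9.78 to 13.6), 6.27% of 2663 (5.38 to 7.26), 2.80% of 1107 (1.91 to 3.95) and 4.61% of 1518 (3.61 to 5.79). WT HFD was highest here and WT normal diet lowest. Median depths before thinning were 13597, 3466, 4171 and 3956 UMIs.

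Among cells that met the lipid-associated set alone (Trem2, Cd9, Lpl, Gpnmb, Spp1, Fabp4, Fabp5, Atp6v0d2), at least 10 members were found in 5.73% of 1308, 4.99% of 1223, 6.75% of 237 and 5.66% of 212. The interval in WT normal diet was 3.91 to 10.7. Median depths were 16156.5, 5475, 7412 and 6336.5 UMIs. With 1 library per group these intervals show counting error over cells and test no difference between groups, in either set or between the sets. Cells with the monocyte set alone held at least 10 members in 4.27%, 2.68%, 0.957% and 1.96%. Cells that met no set stood at 11.3%, 11.5%, 5.83% and 8.46%.

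**Figure D5:**
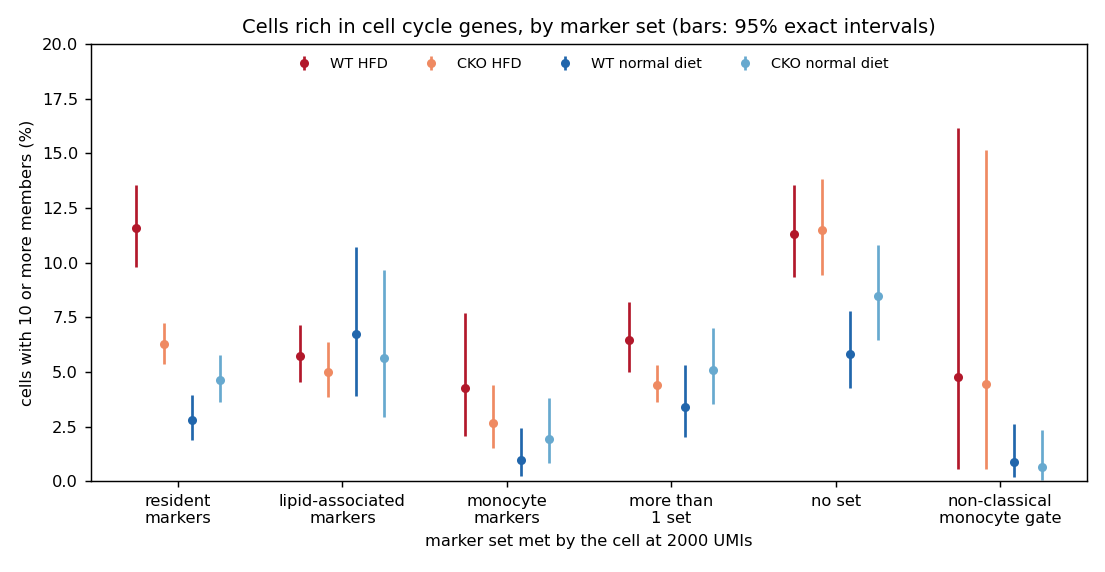
Share of cells with at least 10 of the 40 members at 2000 UMIs, by the marker set the cell met and by library, with 95% exact binomial intervals for counting error. In cells with resident markers alone WT HFD is at 11.6% and WT normal diet at 2.80%, while the values in cells with lipid-associated markers alone run from 4.99% to 6.75%.

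Genes outside the set that went most with it were named by how often they were found in cells with at least 2 members relative to the other thinned cells. They were Pimreg (3.96% against 0.00474%, means over the 4 libraries), Mxd3 (2.25% against 0.00836%), Pbk (3.63% against 0.0165%), Hmmr (5.38% against 0.0309%) and Esco2 (2.86% against 0.0201%). Pbk encodes a mitotic kinase, Hmmr a spindle protein and Esco2 a cohesin acetyltransferase of S phase. The second share of each rests on few cells.

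A wider list of 60 replication genes and another of 74 mitotic genes followed their members in part. For CKO over WT under HFD, 0 of 36 wider replication genes were over 1.5 times higher and 9 lower, against 3 and 27 of 48 wider mitotic genes, with medians of -0.32 and -0.63, where 5.38% of all genes were higher and 20.7% lower. The replication list ran from Prim2 (0.490), a primase subunit, to Tipin (1.17). Under the normal diet the medians were 0.11 and 0.33, the replication list ran from Blm (0.960) to E2f8 (1.44), with 4 of 36 wider mitotic genes higher, led by Cdc20 (1.69), the activator of the anaphase-promoting complex, and with Gas2l3 lowest (0.914). Over all genes 0.493% were higher. In WT, HFD over normal diet gave 11 of 38 wider replication genes higher and 2 lower, and 25 of 48 wider mitotic genes higher and 1 lower, against 13.2% and 24.6% of all genes. The highest were Rfc4 (2.38), a clamp loader subunit, and Fbxo5 (3.05), an inhibitor of the anaphase-promoting complex. Both reached 10 CPM in WT HFD but not in WT normal diet. Cdc20 and E2f8 reached it in CKO normal diet but not in WT normal diet. Such genes could pass the filter only by differing, so the counts of the wider lists are a description. In CKO, 0 of 34 and 0 of 37 were higher and 10 and 11 lower, with medians of -0.15 and -0.48, against a median of -0.44 over all genes, of which 42.6% were lower.

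Those wider lists also had members that went against their list. Cenpw was at 1.84 in CKO over WT under HFD while Ndc80, a kinetochore protein, was at 0.470. E2f2 was at 0.583 for HFD over normal diet in WT and 0.341 in CKO, where it was the lowest of the replication list. Espl1 (separase) was at 0.467 in WT, and Racgap1 at 0.556 in CKO. Spc24 was at 1.49 and Pold2 at 1.43 in CKO. Ndc80 reached 10 CPM in WT HFD but not in CKO HFD, and Pold2 in CKO HFD but not in CKO normal diet. E2f2, in both genotypes, and Espl1, in WT, reached it under the normal diet only. Smc4, a condensin subunit, stood at 127.9, 73.1, 94.9 and 106.6 CPM, Cks2 at 64.7, 75.2, 69.3 and 75.1, and Tubb4b at 103.2, 67.1, 35.9 and 49.9. Nasp, a histone chaperone, stood at 71.1, 45.8, 84.4 and 82.5 CPM, Slbp at 55.4, 49.1, 70.2 and 76.2 and Dnmt1 at 50.4, 43.8, 46.2 and 48.7.

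Of 47 regulators of cell cycle entry, Ccnd2, which encodes cyclin D2, differed most between diets. It stood at 13.8, 23.8, 90.4 and 106.3 CPM, which is 0.152 for HFD over normal diet in WT (0.141 to 0.164) and 0.223 in CKO (0.208 to 0.240). Under HFD it was 1.73 times higher in the library labelled CKO than in WT. Ccnd1, encoding cyclin D1, stood at 145.2, 109.3, 123.8 and 178.4 CPM and was highest in CKO normal diet. Cdkn1a, encoding the inhibitor p21, stood at 296.6, 340.9, 428.8 and 394.7 CPM, lower in each HFD library than in each normal-diet library, though in CKO its ratio was above the median of all genes.

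Maf, a transcription factor gene known to hold back macrophage division, stood at 347.9, 365.2, 483.7 and 609.2 CPM. Its CPM was lower under HFD in both genotypes, a direction it shared with the typical gene (log2 medians of -0.18 in WT and -0.44 in CKO). The Maf ratios lay below these medians. Over 1.5 times lower under HFD were 24.6% of all genes in WT and 42.6% in CKO. Whether the level of Maf bears on division in these cells was not tested. Btg2 stood at 1007, 845.2, 938.6 and 820.4 CPM and Klf2 at 677.3, 849.2, 596.5 and 683.7. Over the regulators as a list, 3 of 38 were over 1.5 times higher and 5 lower for CKO over WT under HFD, with Lin54 lowest (0.480), against 5.38% and 20.7% of all genes. Under the normal diet 1 of 37 was higher (Cdkn2c, 1.51) and none lower, with Btg1 lowest (0.778). For HFD over normal diet, 5 were higher and 10 lower of 39 in WT, with Wee1 highest (2.08), and 4 and 17 of 39 in CKO, with Lin37 highest (1.88). Over all genes, 24.6% were lower in the former and 42.6% in the latter. The shares of regulators that were lower are thus near the background. Wee1 reached 10 CPM in WT HFD but not in WT normal diet, and Lin37 in CKO HFD but not in CKO normal diet.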

How the data were processed

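The authors deposited UMI counts, not normalized, for each gene and barcode of 4 libraries; Cell Ranger 7.0.0 wrote them per the file headers, and the build, GRCm38, comes from the submitters' processing notes. The sources used here do not give the annotation version, whether intron reads were counted or how reads shared with near-identical gene copies were treated. The members and all lists were chosen with earlier results of these data known.

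Cells under 500 UMIs, under 300 genes or over 10% mitochondrial UMIs were left out. CPM is the sum over kept cells per 1000000 UMIs. For values per cell, each cell was drawn down to 2000 UMIs without replacement (seed 1). Levels carry exact Poisson intervals, ratios and odds exact conditional binomial intervals, and shares Clopper-Pearson intervals. The level is 95%, and only counting error is covered. No p-value is given, since cells of 1 library are not replicates. Ratios, thinning and odds were tested on simulated data. Python 3.11.15, numpy 2.4.6, scipy 1.17.1, scanpy 1.11.5 and edgeR 4.0.16 (TMM factors only) were used.

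Marker gates at 2000 UMIs needed at least 2 resident, lipid-associated or monocyte markers. They needed at least 3 markers of non-classical monocytes (Ace, Treml4, Spn, Cd300e, Eno3, Adgre4, Itgal, Nr4a1), lymphoid cells, dendritic cells or granulocytes, or at least 5 UMIs over at least 3 fibroblast markers. No doublets were removed. Scrublet's automatic threshold called 0 cells in each library and so had not worked, and removing the top 0.8% of scores per 1000 cells is an alternative. Full values were given for the S-phase (6), mitotic (10) and other members (3) of highest mean CPM and for the highest and lowest ratio of each list. For the wider lists and regulators the 3 of highest mean CPM, the highest and lowest ratios, Cdkn1a, Ccnd1, Ccnd2 and Maf were named (1 regulator that the rule names is not reported here), and for likeness the 5 genes of highest ratio found in at least 2% of cells with 2 or more members.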

Additional observations from a re-analysis of the deposited data

Results flagged for a closer look

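The libraries labelled CKO and WT differed in opposite directions under the 2 diets. For diet, the mitotic medians of the 2 genotypes had opposite signs in CPM ratios, but the same sign under each of the 3 scalings below. In CPM of thinned UMIs the signs were again opposite. The medians were 1.14 in WT and -0.05 in CKO, where 7 members were above 0 and 12 below. Neither difference was tested, since each group is 1 library. The median log2 ratio of the mitotic members for CKO over WT was -0.65 under HFD and 0.40 under the normal diet. The share of cells with at least 2 members had ratios of 0.893 and 1.10. At 3000 UMIs per cell that share was 44.9% in WT and 44.4% in CKO under HFD, and 42.7% and 45.4% under the normal diet. The intervals of both its ratios then included 1. With cells chosen by the wider lists the shares were 58.5% and 49.0% under HFD, and 61.9% and 62.6% under the normal diet. The S-phase to mitotic odds had ratios of 1.34 and 0.770. For HFD over normal diet the mitotic median was 0.88 in WT and -0.22 in CKO, but the latter was above 0 when centred on the median of all genes (0.21), with TMM factors (0.26) and relative to genes of similar span (0.15). Mitotic UMIs per thinned cell in CKO had a ratio of 0.995 (0.956 to 1.04). WT HFD enters the contrast of genotype under HFD and that of diet in WT, and is the deepest library, with a median of 14492.5 UMIs per cell against 3923 to 4092 in the others. Group and library preparation cannot be told apart.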

How the results depend on the processing

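Odds of S-phase over mitotic UMIs kept their direction in all settings run for CKO over WT under both diets. The same held for HFD over normal diet in WT. None of these settings held the number of members to a range. In cells with 5 to 9 members the S-phase share was 50.7%, 50.3%, 40.2% and 43.9%. There HFD over normal diet in WT, and CKO over WT under the normal diet, went the other way. CKO over WT under HFD did not keep its direction there either, with intervals of 48.1 to 53.2 in WT and 48.3 to 52.3 in CKO. In cells with 2 to 4 members HFD over normal diet in WT also went the other way, at 72.1% against 70.8%. For HFD over normal diet in CKO (1.05) the odds fell on either side of 1 across settings. For that comparison they were 0.966 at 1000 UMIs, 1.14 without thinning, 0.956 in cells with at least 10 members, 1.12 without Pcna, 0.963 in cells chosen by the wider lists, 1.12 with 15 S-phase genes, 0.976 with 25 mitotic genes and 1.18 when cells were counted by the list with more UMIs. For HFD over normal diet in WT they were 0.681 without thinning, 0.658, 0.654 and 0.527 with at least 4, 5 and 10 members, 0.671 in cells chosen without Hmgb2, Stmn1 and Pcna, 0.650 without Pcna, 0.673 with 25 mitotic genes and 0.714 when cells were counted. For CKO over WT under HFD they were 1.26 and 1.21 with at least 4 and 10 members and 1.16 with 25 mitotic genes. Under the normal diet they were 0.859 at 1000 UMIs and 0.665 with at least 10 members.

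The share of cells with at least 2 members for CKO over WT under HFD had a ratio of 0.809 at 1000 UMIs, 0.989 at 3000 UMIs and 0.545 without thinning, where depth differs. With at least 4, 5 and 10 members it was 0.7995, 0.798 and 0.690, without Hmgb2, Stmn1 and Pcna 0.812, and by the wider lists 0.838. For HFD over normal diet in WT it was 1.39, 1.05 and 1.62 at those depths, 1.49, 1.75, 1.84 and 2.27 with at least 3, 4, 5 and 10 members, and 1.53 without those 3 genes. It reversed to 0.946 when cells were chosen by the wider lists, which 58.5% and 61.9% of cells then met; the cause was not tested. Under the normal diet CKO over WT was 1.21, 1.33, 1.37 and 1.41 with at least 3, 4, 5 and 10 members. For HFD over normal diet in CKO it was 0.873 without thinning, 1.04, 1.06, 1.07 and 1.12 with those numbers of members, 1.07 without the 3 genes and 0.783 by the wider lists. The settings with at least 5 or 10 members, without Hmgb2, Stmn1 and Pcna, without Pcna and without gated monocytes were chosen after seeing the data.

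Members over 1.5 times lower were 6 in place of 15 for CKO over WT under HFD, both centred on the median of all genes and with TMM factors. For HFD over normal diet in CKO they were 0 with either scaling and 4 relative to genes of similar span, in place of 2. Counts of members over 1.5 times higher stayed within 1.5 times in all settings run. Shares over all genes were not computed under these alternatives, so the counts have no background there. Leaving out replicates was not possible with 1 library per group, and no paired analysis was possible because each group has a single library. Depth limits members under 10 CPM (Cdc6 and Aurka in all comparisons).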
